A study of Mus musculus with 112 samples.

Results

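The cytosolic ribosome is built from ribosomal RNA and a fixed set of ribosomal proteins, those of the large subunit encoded by Rpl genes and those of the small subunit by Rps genes. These genes were taken by symbol: a probe set counted where the array annotation gave it exactly 1 symbol, and that symbol was Rpl or Rps followed by a digit, or Rplp0, Rplp1, Rplp2 or Rpsa, leaving out the S6 kinase genes and symbols of pseudogenes. The rule found 63 of the 19938 genes measured, from 219 of 21789 probe sets with 1 symbol, and the probe set of highest mean over all arrays stood for each gene. The 63 genes were 33 of the large subunit, 21 of the small subunit, 8 paralogs or retrogenes (Rpl3l, Rpl7l1, Rpl10l, Rpl32l, Rpl39l, Rps4l, Rps23rg1 and Rps27l) and Rps19bp1, which fits the symbol rule but encodes a protein that binds Rps19 and is no part of the ribosome. A further 239 probe sets that named a ribosomal protein together with other symbols were left out, and 20 symbols, Rpl3, Rpl11, Rps23 and Rps24 among them, occurred only on those and are not analysed here.

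The tissue was cerebral cortex from 112 male mice, 1 array per mouse, in 14 groups of 8. The 7 strains were B6C3F1/J, the first-generation hybrid of C57BL6/J with C3H/HeJ, both of which were studied too, and the inbred strains CBA/J, DBA/2J, Balbc/J and 129S1/SvImJ. Each gave a control group and a calorie restricted (CR) group. The mice carried no engineered allele, arrived at 6 weeks, lived in single cages, were given 84 kcal per week until 8 weeks and then ate the control or the CR diet until 22 weeks, when they were fasted overnight before collection. By the study's methods strains were fed unequally, since Balbc/J mice received more food on both diets, the food of the 129S1/SvImJ and C57BL6/J CR mice was lowered again partway, and the other 4 strains kept 1 allotment. Values are log2 probe set signals made with RMA, so a difference of 1 is 2-fold, and signals of different genes are not on a common scale. Unless stated otherwise, differences are followed by their standard error, and genes were called at an adjusted p under 0.05 over all 19938 genes.

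Ribosomal protein genes are among the most strongly transcribed in any cell, the brain included, where neurons translate messages in dendrites and axons as well as in the cell body. Many of their messages start with a run of pyrimidines, the 5′ terminal oligopyrimidine (TOP) tract, through which the mTOR pathway, itself sensitive to food supply, sets how much of each message is translated. Arrays measure the message and not its translation. In tissue RNA, fewer cells of a type and less RNA per cell cannot be told apart.

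Of the 63 genes, 51 had an entry in RefSeq's table of promoters (mouse build GRCm38.p6), which holds 250 bases before and 50 bases from the annotated start on. A C at the start followed by 4 pyrimidines was found in 10 of the 51 (19.6%), against 2.67% of 17492 protein coding genes in the table. With the start of the tract allowed within 10 bases either side, the shares were 56.9% and 34.9%. The stretches below run from 10 bases before the start to 20 from it on, with the unbroken pyrimidine run that begins with a C at the start in capitals. Rps6, Rpl38 and Rps18 show what such a run looks like. Rpl37a is the gene called for diet, and Rps2, Rpl4 and Rplp0 are among the genes of largest strain range.
Rps6 (chr4:86857348-86857377, minus strand): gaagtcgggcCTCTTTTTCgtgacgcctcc
Rpl38 (chr11:114668570-114668599, plus strand): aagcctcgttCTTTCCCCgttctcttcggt
Rps18 (chr17:33955646-33955675, minus strand): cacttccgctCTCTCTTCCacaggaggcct
Rpl37a (chr1:72711250-72711279, plus strand): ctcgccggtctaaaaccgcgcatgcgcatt
Rps2 (chr17:24720053-24720082, plus strand): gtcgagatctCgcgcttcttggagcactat
Rpl4 (chr9:64173377-64173406, plus strand): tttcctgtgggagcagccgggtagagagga
Rplp0 (chr5:115559457-115559486, plus strand): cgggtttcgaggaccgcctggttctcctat
The first 3 hold runs of 9, 8 and 9 pyrimidines. The last 4 hold no tract at the annotated base, which says only that these letters are not there. The word TCTCGCG on either strand occurred in the window of 13 of the 51 genes (25.5%, against 3.93% of protein coding genes), all 13 of them large or small subunit genes. The ETS word CCGGAAG occurred in 37.3% against 12.9%, and the YY1 word AAGATGGC in 5.88% against 3.57%. The TCTCGCG word is shown in capitals for Rps6, Rpl7a and Rps3a1, which come up in the hybrid comparison. It is also shown for Rps28, the gene most like the mean of the others from mouse to mouse. Each stretch is read along the gene's own strand.
Rps6 (chr4:86857400-86857429, minus strand): ccgccggctgtTCTCGCGagaacttagagc
Rpl7a (chr2:26910744-26910773, plus strand): agggcgcctgcTCTCGCGatatctgcggcc
Rps3a1 (chr3:86142675-86142704, minus strand): ccagctagtgtCGCGAGAttcttaaagccg
Rps28 (chr17:33824545-33824574, minus strand): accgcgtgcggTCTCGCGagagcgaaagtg
In Rps3a1 the word lies on the strand opposite to the gene, so the capitals are its reverse complement. In Rps6 and Rps28 the word also occurs on the opposite strand, overlapping the copy in capitals.

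The 9 markers of excitatory cortical neurons had mean signals from 8.69 (Neurod6) to 12.97 (Camk2a), and the 5 striatal markers from 9.09 to 10.10, but signals of different probe sets cannot be ranked, so these levels do not by themselves place the tissue. Of the 112 arrays 2 stood apart in the median of 14 cerebellar genes, replicate 6 of the C57BL6/J control mice by 3.31 and replicate 8 of the B6C3F1/J control mice by 3.43 log2 units over their groups, and their ribosomal protein genes lay at medians of -0.21 and -0.20 relative to the same groups. Another array, DBA/2J control replicate 8, exceeded its group by 1.14 in the cerebellar genes, with a ribosomal protein median of -0.013. For the control hybrid and for CR across strains, the count of genes called lower and the median are also given without the 2 arrays. Other values include all of these arrays unless stated otherwise. No label gives an array date or lot, so strain and processing batch cannot be told apart.

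Strains differed far more than diets in ribosomal protein messages. Among control mice the strain term was called in 58 of the 63 genes, where it was called in 65.4% of all genes, and among CR mice in 56, against 56.8% of all genes. The 54 genes called in both diets included all of the widest differences. The range from the lowest to the highest strain mean had a median of 0.36 over the 63 genes against 0.27 over all genes, 11 genes spanned more than 0.5 (9.70% of all genes did) and 5 spanned more than 0.9. The 8 of largest range were Rps2 (1.09), Rpl4 (1.08), Rpsa (0.97), Rplp0 (0.94), Rpl34 (0.92), Rps3a1 (0.68), Rpl29 (0.66) and Rps9 (0.59).

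**Figure D1:**
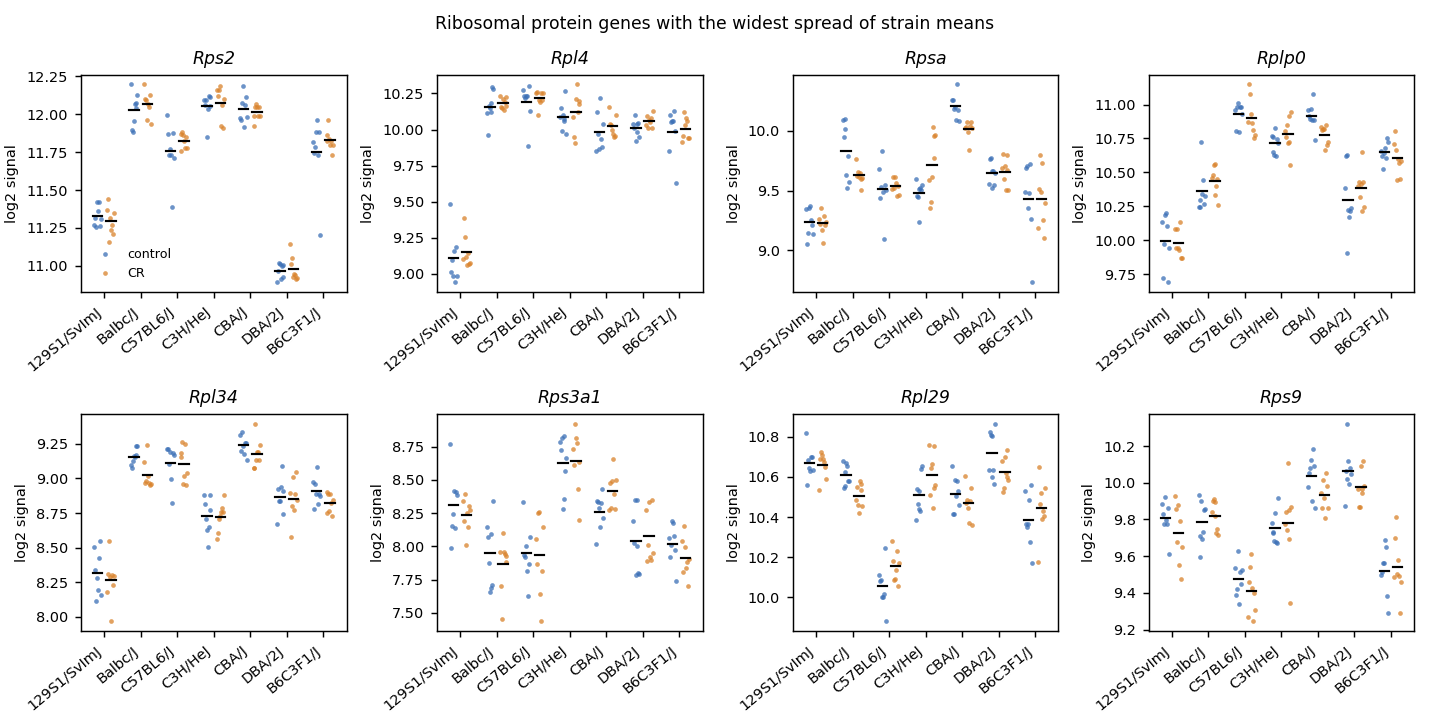
Log2 signal of the 8 ribosomal protein genes of largest strain range, 1 point per mouse (8 per group) with the group mean as a line, by strain on the x axis and with control mice in blue and CR mice in orange. Rps2 is lowest in DBA/2J, Rpl4 and Rpl34 in 129S1/SvImJ and Rpl29 in C57BL6/J, with both diets alike in this.

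Rps2 encodes a small subunit protein near the path by which the message enters the ribosome. Its signal in DBA/2J control mice had a lowest value of 10.89, a median of 10.98 and a highest of 11.02. In C3H/HeJ control mice, the strain of highest mean, the 3 values were 11.85, 12.08 and 12.12. The 2 groups did not overlap, and the 1.09 between their means (10.97 ± 0.05 and 12.05 ± 0.09, SD, n = 8 each) is 2.12-fold. The 129S1/SvImJ control mice came next from below, at 11.26 to 11.42, apart from DBA/2J (exact permutation test of neighbours in the order, two-sided, adjusted p = 0.00213 over 96 such comparisons) and below B6C3F1/J at a mean of 11.75 (adjusted p = 0.00839). The B6C3F1/J and C57BL6/J means, 11.75 and 11.76, and those of Balbc/J, CBA/J and C3H/HeJ, 12.03 to 12.05, did not differ beyond their spread. In CR mice DBA/2J was again lowest, at 10.91 to 11.15, and C3H/HeJ highest, at 11.91 to 12.19. The strain term was called in both diets (moderated F = 115, adjusted p = 2.84e-40 in control mice and F = 121, adjusted p = 3.20e-41 in CR mice). The 2 other probe sets of Rps2 spanned 1.12 and 0.95 among control means, also with DBA/2J lowest.

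Rpl4, whose protein lines the tunnel through which the growing chain leaves the large subunit, set 129S1/SvImJ apart from all other strains. Its signal there was 8.95 at the lowest, 9.06 at the median and 9.48 at the highest control mouse. The 6 other control groups had means between 9.98 and 10.19, with 9.63 as their lowest single value, in the B6C3F1/J array high in cerebellar genes. In CR mice 129S1/SvImJ ran from 9.06 to 9.39 and the other means from 10.01 to 10.22. In both diets 129S1/SvImJ differed from its nearest neighbour, B6C3F1/J, by 0.88 and 0.85 without overlap (exact permutation test, adjusted p = 0.00213 each), while none of the other neighbours in the order differed beyond their spread. Rpl4 had 1 probe set, so no other reading of it exists here.

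Rplp0, the base of the stalk that recruits elongation factors and a gene often used as a reference in PCR, was also lowest in 129S1/SvImJ. The control values there ran from 9.69 over a median of 10.04 to 10.20, and in C57BL6/J, the highest, from 10.80 over 10.97 to 11.01. The means, 9.99 ± 0.20 and 10.93 ± 0.08 (SD, n = 8 each), were 1.92-fold apart, and the range in CR mice was 0.92. DBA/2J and Balbc/J came next among control mice, with means of 10.30 and 10.36. There DBA/2J overlapped with 129S1/SvImJ and did not differ from it beyond its spread (exact permutation test, adjusted p = 0.0539). In CR mice it lay above 129S1/SvImJ without overlap (adjusted p = 0.00213 by the same test). The other stalk genes had narrower ranges. Among control mice Rplp1 spanned 0.39 with C3H/HeJ lowest by the chosen probe set, and 0.63 with B6C3F1/J lowest by its second. Rplp2 spanned 0.16 among control mice, and its strain term was not called (adjusted p = 0.321). Among CR mice Rplp2 spanned 0.33 and was called (adjusted p = 0.000165).

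Rpl34, a large subunit gene, had control values of 8.12 to 8.55 in 129S1/SvImJ and of 9.13 to 9.33 in CBA/J, again without overlap, and was called in both diets (adjusted p = 5.21e-28 and 3.67e-27). Rpsa, a small subunit protein also known as the precursor of a laminin receptor, was highest in CBA/J, at 10.08 to 10.39 among control mice, and lowest in 129S1/SvImJ, at 9.05 to 9.37. Of its 4 other probe sets 3 had the same lowest and highest strains. These spanned 0.44, 0.72 and 0.77 among control means, below the 0.97 of the chosen one. The remaining probe set, of mean 8.80, spanned 0.41 and did not follow the chosen one over the 14 group means (r = -0.0027). Rps9, which takes part in the early folding of small subunit RNA, was lowest in C57BL6/J (control 9.34 to 9.63) and highest in DBA/2J (9.87 to 10.32), and its second probe set spanned 0.30 with other strains at the ends (r = 0.27 over the 14 means).

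Rpl29 was lowest in C57BL6/J, at 9.88 to 10.25 in control and 10.06 to 10.28 in CR mice. The hybrid, with means of 10.39 and 10.45, lay above C57BL6/J (adjusted p = 0.00332 and 0.00497 by the exact permutation test) and did not differ from C3H/HeJ, at 10.51, beyond its spread among control mice (adjusted p = 0.135). Rps3a1 was highest in C3H/HeJ, at 8.28 to 8.83 in control and 8.20 to 8.92 in CR mice, while the hybrid, at 7.74 to 8.19 and 7.70 to 8.15, overlapped with C57BL6/J, at 7.63 to 8.33 and 7.44 to 8.26. At the other end, the narrowest ranges among the genes called in control mice belonged to Rpl41 (0.18), Rpl30 (0.22) and Rpl22 (0.22). The call of Rpl41 was lost on both diets with array medians set equal (adjusted p = 0.0881 and 0.138) and among control mice after quantile normalization (0.0926). Whether differences in the strains' sequence under the probes contribute to any of these values was not tested.

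The strains at the ends were often the same on both diets. The same strain was lowest in control and CR mice, which are different animals, in 45 of 63 genes (52.3% of all genes) and highest in 43 (50.4%). The lowest strain was 129S1/SvImJ in 22 genes on each diet, the hybrid in 17 genes on the control diet and 21 on CR, and C57BL6/J in 11 and 9, or 17.5% and 14.3% beside 35% and 26.2% of all genes. The hybrid's share, 27.0% and 33.3% of the genes, stood beside 7.41% and 8.43% of all genes, and 129S1/SvImJ's, 34.9% on each diet, beside 21.8% and 21.3%. The highest strain on the control diet was CBA/J in 23 genes (16.4% of all genes), C57BL6/J in 17 (17.6%), DBA/2J in 14 (8.39%) and the hybrid in 0 (7.66%).

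**Figure D2:**
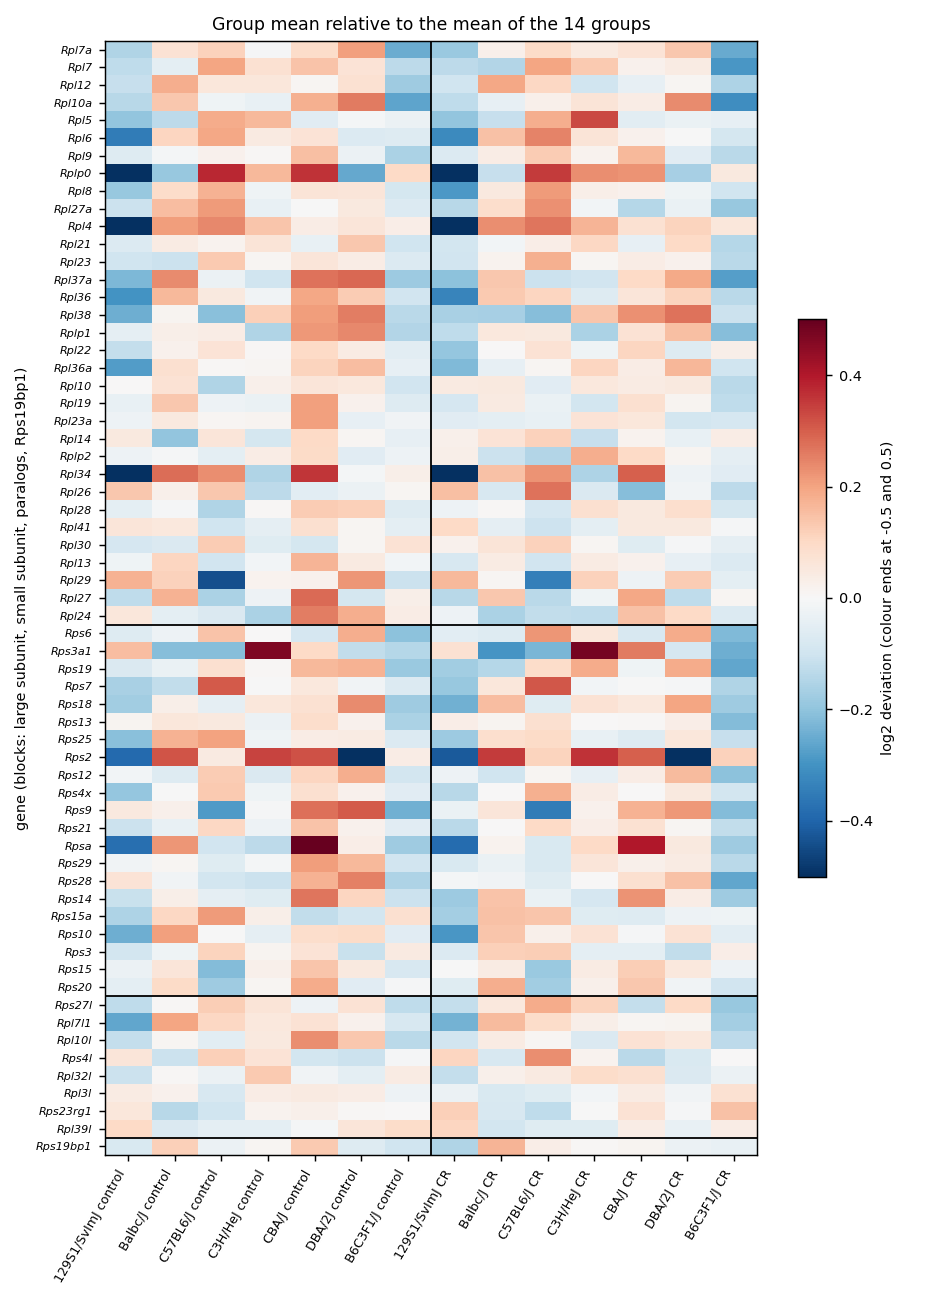
Mean log2 signal of each of the 63 genes (rows) in each of the 14 groups (columns, control groups left and CR groups right of the line), as the deviation from the gene's mean of the 14 groups. Blocks hold the large subunit, small subunit, paralog genes and Rps19bp1, each ordered by the hybrid's difference from its parental strains in control mice, and blue prevails in the 129S1/SvImJ and B6C3F1/J columns of both diets.

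Averaged over the 63 genes, each taken relative to its own mean of 112 arrays, the groups ran from -0.13 ± 0.047 (SD, n = 8) in 129S1/SvImJ CR mice to 0.12 ± 0.054 in CBA/J control mice. The 129S1/SvImJ mice lay below 0 on both diets in all 16 arrays, at -0.21 to -0.053. The hybrid means were -0.072 ± 0.085 and -0.10 ± 0.083, and its arrays ran from -0.25, in the array high in cerebellar genes, to 0.046. The groups' array quality, as the mean spread of relative log expression, ran from 0.200 in C3H/HeJ control to 0.315 in C57BL6/J control mice. It was 0.288 and 0.267 in 129S1/SvImJ and 0.236 and 0.225 in the hybrid, between the values of its parental strains. With array quality as a covariate the hybrid comparison described next gave 25 genes lower in control mice, beside 12.7% of all genes. In CR mice it gave 34, beside 11.3%, and the medians were -0.0996 and -0.152.

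**Figure D3:**
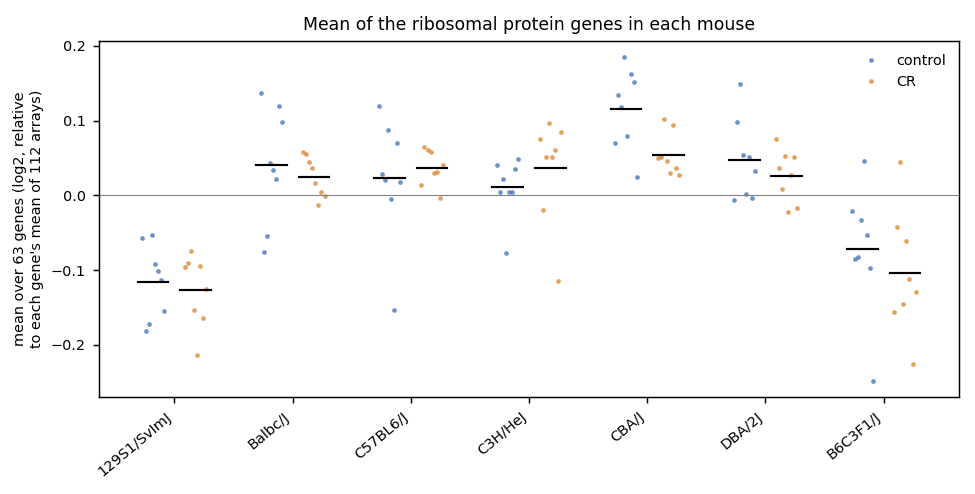
Mean of the 63 ribosomal protein genes in each mouse (points, 8 per group), in log2 units relative to each gene's mean over 112 arrays, by strain, with control mice in blue, CR mice in orange and group means as lines. The 129S1/SvImJ arrays all lie below 0 and most hybrid arrays do, and the CBA/J control mean, at 0.12, is the highest.

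The hybrid fell below its parental strains in a large share of these genes. Against the mean of C57BL6/J and C3H/HeJ, 23 genes were called lower and 2 higher in control mice, where 9.77% and 6.39% of all genes were, and 32 lower and 1 higher in CR mice, where 10.5% and 7.46% were. The median difference was -0.089 in control mice and -0.146 in CR mice, against 0.015 and 0.018 over all genes, with 51 and 53 of 63 negative. The control and CR comparisons share no mice, and 21 genes were called lower in both. The hybrid mean lay below both parental means, not only between them, in 39 genes (61.9%) of control and 44 (69.8%) of CR mice, 37 of them the same genes, where 29.1% and 29.4% of all genes did.

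**Figure D4:**
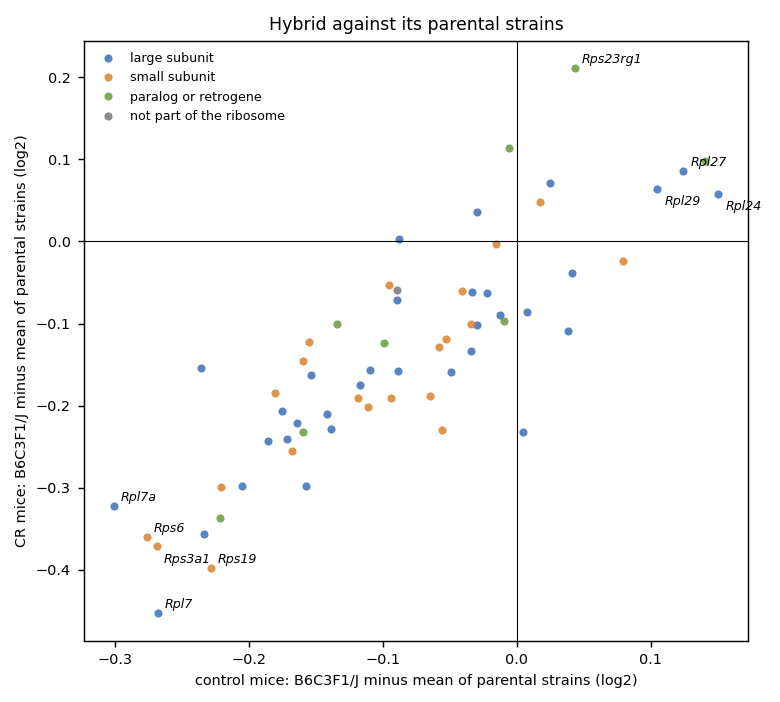
Difference of B6C3F1/J from the mean of C57BL6/J and C3H/HeJ in log2 units for each of the 63 genes, control mice on the x axis and CR mice on the y axis, coloured by class. Most points lie in the lower left, Rpl7, Rps19, Rps6, Rps3a1 and Rpl7a farthest out, and Rpl24, Rpl27 and Rpl29 are among the few above 0 on both axes.

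Rps6, the small subunit protein phosphorylated by the S6 kinases downstream of mTOR, was lower in the hybrid on both diets. In control mice its signal was 12.19 to 12.44 (median 12.25) in the hybrid, 12.53 to 12.73 (median 12.57) in C57BL6/J and 12.23 to 12.58 (median 12.50) in C3H/HeJ. In CR mice it was 12.18 to 12.41 in the hybrid, 12.58 to 12.76 in C57BL6/J and 12.45 to 12.60 in C3H/HeJ. The hybrid did not overlap with C57BL6/J on either diet, nor with C3H/HeJ on CR, and its difference from the parental mean was -0.28 ± 0.032 (adjusted p = 9.11e-11) and -0.36 ± 0.032 (adjusted p = 2.45e-16).

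Rpl7a, a large subunit gene, gave -0.30 ± 0.038 in control and -0.32 ± 0.038 in CR mice (adjusted p = 2.63e-09 and 1.04e-10). Its values in the hybrid, 9.86 to 10.15 and 9.92 to 10.12, lay below all C57BL6/J values on each diet, which began at 10.29 and 10.26. Rpl7, of the same subunit, had the largest difference in CR mice, -0.45 ± 0.053 (adjusted p = 1.04e-10), with 8.30 to 8.92 in the hybrid, 8.99 to 9.22 in C57BL6/J and 8.82 to 9.16 in C3H/HeJ. Among control mice it was -0.27 ± 0.053 (adjusted p = 0.000101). Rps19, the gene most often mutated in Diamond-Blackfan anaemia, followed at -0.40 ± 0.055 in CR mice (adjusted p = 1.89e-08) and -0.23 ± 0.055 in control mice (adjusted p = 0.00161). Rps3a1 had differences of -0.27 ± 0.087 and -0.37 ± 0.087, with the hybrid values inside the range of C57BL6/J given above and below that of C3H/HeJ on each diet.

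Rpl24 and Rpl27 were the 2 genes called higher in hybrid control mice, at 0.15 ± 0.055 (adjusted p = 0.0453) and 0.12 ± 0.032 (adjusted p = 0.00334). The call of Rpl24 was lost with array medians set equal (adjusted p = 0.150), with array quality as a covariate (0.0604) and with the mean of its probe sets (0.184). Neither was called in CR mice, at 0.058 (adjusted p = 0.514) and 0.086 (adjusted p = 0.0505). Rps23rg1, a retrogene of Rps23, was the 1 gene called higher in CR mice (0.21 ± 0.061, adjusted p = 0.00726), with 0.043 in control mice (adjusted p = 0.660).

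By role, the large subunit had 13 of 33 genes called lower in control and 18 in CR mice, and the small subunit 8 and 12 of 21. Beside these stood 9.77% and 10.5% of all genes. Of the stalk, Rplp0 was called lower on both diets (-0.17 and -0.24), Rplp1 in CR mice (-0.16) and Rplp2 on neither (-0.022 and -0.062). The X-linked genes Rpl10, Rpl36a and Rps4x were called lower in CR mice, at -0.13, -0.16 and -0.20, and on the control diet had differences of -0.034, -0.049 and -0.11 that were not called. Of the genes tied to the p53 pathway, Rpl5, Rpl23, Rps7 and Rps27l were called lower on both diets, between -0.14 and -0.30 for the first 3 and at -0.22 and -0.34 for Rps27l, a paralog that p53 induces, while Rpl26 differed by 0.0048 in control mice and was called lower in CR mice at -0.23. Among the other paralogs only Rpl7l1 was called lower (-0.16 and -0.23). Rpl3l, made chiefly in striated muscle, and the germ line paralogs Rpl10l and Rpl39l were called on neither diet, nor were Rpl32l and Rps4l. The first 3 had low mean signals of 5.79, 6.21 and 4.93. Rps19bp1 gave -0.089 (adjusted p = 0.120) and -0.059 (adjusted p = 0.342).

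The 13 genes that hold the TCTCGCG word had median hybrid differences of -0.17 in control and -0.26 in CR mice, with 9 called on each diet. The 38 genes with a promoter entry and no such word had medians of -0.088 and -0.10, with 13 and 18 called in either direction. These include Rpl24 and Rpl27 in control mice and Rps23rg1 in CR mice, which were called higher. The 10 genes with a TOP-like start gave -0.037 and -0.091 against -0.12 and -0.16 in the 41 without. These splits were made after the values were seen and were given no test.

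Other gene lists of protein synthesis also held genes called lower in the hybrid, to differing extents. Of all genes 9.77% were called lower in control and 10.5% in CR mice, and 6.39% and 7.46% higher. Of 77 mitochondrial ribosomal protein genes, 32 were called lower in control mice (median -0.095) and 38 in CR mice (-0.12). Of 50 ribosome biogenesis genes, 24 and 22 were called lower, with 47 and 48 negative. Of 17 elongation and initiation factors and other genes with TOP messages, 5 and 9 were called lower and 2 and 1 higher. Of 16 genes of RNA polymerase I and rDNA transcription, 5 and 4 were called lower and 1 on each diet higher, with medians of -0.014 and -0.035. Of 11 regulators of TOP messages and S6 kinase genes, 2 and 1 were called lower and 2 on each diet higher.

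Ribosomal protein genes are bright on the array, and among the genes above the median gene 61.5% of all genes and 45 of 55 ribosomal protein genes were negative in control mice, and 58.5% and 49 of 55 in CR mice. Among these bright genes 21% of all genes and 24 of 55 ribosomal protein genes were called lower in control mice, and 21.7% and 34 of 55 in CR mice. The striatal genes moved with the hybrid as well, with 5 of 5 negative on both diets and medians of -0.56 and -0.66, none called by limma and 0 and 3 at an unadjusted p under 0.05. Their summed level, as a mean, ran from 7.86 to 10.31 in hybrid control mice, from 7.73 to 10.05 in C57BL6/J and from 9.33 to 10.54 in C3H/HeJ. In CR mice it ran from 8.61 to 10.71, from 9.33 to 10.29 and from 9.13 to 10.93, so that the groups overlapped. With the mean of the striatal genes as a covariate, 19 and 26 ribosomal protein genes were called lower, beside 9.12% and 9.39% of all genes. The medians were -0.068 and -0.107. Astrocyte genes were negative in 6 and 7 of 7, with medians of -0.072 and -0.12. Of them 1 and 2 were called lower, beside 9.77% and 10.5% of all genes. Endothelial genes were negative in 5 and 4 of 5, with medians of -0.099 and -0.046 and 2 and 1 called lower, and microglial genes in 6 and 5 of 7, with medians of -0.062 and -0.10 and 1 called lower on each diet. Excitatory neuron genes had medians of -0.14 and 0.16, opposite in sign between diets. The control median includes the 2 arrays high in cerebellar genes. Their means over the excitatory genes were 8.06 in C57BL6/J and 8.28 in the hybrid. The other control mice of these groups had 9.87 to 10.11 and 9.79 to 10.16. Without the 2 arrays high in cerebellar genes, 22 ribosomal protein genes were called lower in control mice, beside 11.8% of all genes, with a median of -0.062.

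Calorie restriction, averaged over the 7 strains, moved the ribosomal protein genes very little. Of the 63 genes 1 was called lower and 0 higher by limma, where 1.17% of all genes were called in each direction. At an unadjusted p under 0.05, 11 were lower and 0 higher, against 7.33% and 6.98% of all genes. The median difference was -0.014, with 42 of 63 negative, where 49.3% of all genes were. The 95% interval of all 63 genes lay within a change of 10%, as it did for 92.1% of all genes. Large subunit genes had 22 of 33 negative and 9 lower at an unadjusted p under 0.05, small subunit genes 16 of 21 and 2, and the paralogs 4 of 8 and 0.

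**Figure D5:**
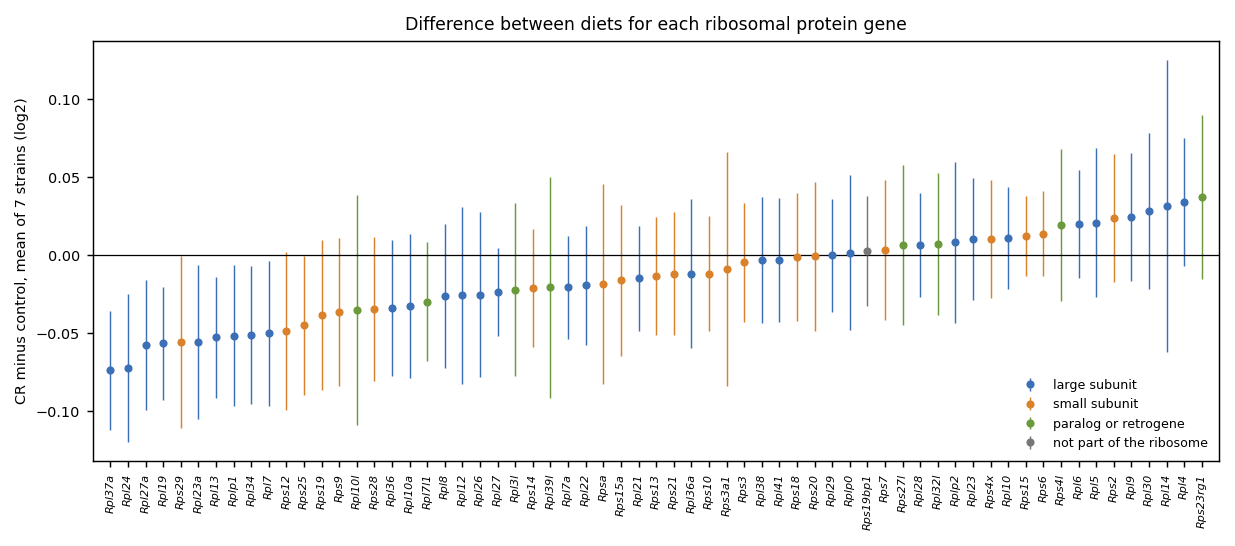
CR minus control, averaged over the 7 strains, for each of the 63 genes in log2 units (points, coloured by class) with its 95% interval from the fit over 112 arrays (bars), ordered by size. Of the 63 points 42 lie below 0 and the interval of Rpl37a, at -0.074, is the farthest from it.

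The called gene was Rpl37a, a zinc-binding large subunit protein, at -0.074 ± 0.019 (95% interval -0.11 to -0.036, a change of -4.99%, adjusted p = 0.0182). In CBA/J its control values had a lowest of 10.42, a median of 10.54 and a highest of 10.68, and its CR values 10.25, 10.39 and 10.47. In DBA/2J the 3 values were 10.46, 10.55 and 10.71 on control and 10.27, 10.47 and 10.61 on CR food. Control and CR mice overlapped in every strain, and the strain differences were -0.17 in CBA/J, -0.10 in Balbc/J, -0.095 in DBA/2J, -0.094 in B6C3F1/J and -0.078 in C57BL6/J, with 0.0044 in C3H/HeJ and 0.017 in 129S1/SvImJ. The call was lost without CBA/J (adjusted p = 0.190), Balbc/J (0.0784) or DBA/2J (0.0739).

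Behind it came Rpl19 at -0.057 ± 0.018 (adjusted p = 0.0737), Rpl24 at -0.073 ± 0.024 (0.0820), Rpl27a at -0.058 ± 0.021 (0.131), Rpl13 at -0.053 ± 0.020 (0.146) and Rpl34 at -0.051 ± 0.022 (0.249), all of the large subunit and none called. Rpl19 and Rpl34 were lower on CR in 7 of 7 strains and Rpl24 and Rpl13 in 6. Without the 2 arrays high in cerebellar genes 5 genes were called lower, Rpl19, Rpl24, Rpl27a, Rpl37a and Rplp1, beside 2.61% of all genes. The median was -0.020. The 14 cerebellar genes were all lower on CR across strains, with a median of -0.092 that rests on control arrays.

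Related gene lists were mixed in direction on CR across strains. Of 50 ribosome biogenesis genes 1 was called lower and 21 were negative, of 77 mitochondrial ribosomal protein genes 1 was called in each direction and 37 were negative, and of 17 TOP message factors 1 was called lower and 8 were negative. Of the regulators of TOP messages and S6 kinase genes 1 of 11 was called higher and 6 were negative. Of the polymerase I genes 0 of 16 was called and 10 were negative (62.5%), with a median of -0.011. Among them 5 were past an unadjusted p of 0.05, 2 lower and 3 higher.

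Within single strains limma called 0 of the 63 genes in each of the 7, and the methods' t-test with Benjamini-Hochberg adjustment called 0 as well. The fit called 0.00502% of all genes in 129S1/SvImJ, 0.0853% in C57BL6/J, 0.1% in CBA/J and 0% in Balbc/J, C3H/HeJ, DBA/2J and B6C3F1/J. At an unadjusted p under 0.05 there were 16 genes in CBA/J, all lower, against 7.87% of all genes, and 12 in Balbc/J, 5 lower and 7 higher, against 6.65%. The count was 7 in C3H/HeJ, 6 of them higher, against 2.64%, and 4 in B6C3F1/J, 3 of them lower, against 7.63%. In C57BL6/J it was 3, all higher, against 10.6%, in DBA/2J 1, lower, against 5.66%, and in 129S1/SvImJ 0, against 6.24%. The standard error within a strain, 0.059 at the median, stood beside 0.022 across strains.

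In CBA/J 50 of 63 genes were lower on CR, with a median of -0.063 against -0.0026 over all genes, 26 of 33 in the large and 18 of 21 in the small subunit. The mean over the 63 genes was 0.12 ± 0.054 in CBA/J control and 0.055 ± 0.028 in CBA/J CR mice (SD, n = 8), with overlap between 0.027 and 0.10. In CBA/J the striatal genes were lower as well, 5 of 5 with a median of -0.20, none called, and with their mean as a covariate 49 genes were negative and the median was -0.054. In C3H/HeJ 41 of 63 were higher, with a median of 0.023, the striatal genes were 5 of 5 higher with a median of 0.24, and with the striatal covariate the median was 0.0074. In DBA/2J the median was -0.016 with 40 negative, the striatal genes were 5 of 5 lower with a median of -0.57, and with the covariate the median turned to 0.0078 with 28 negative. The medians in 129S1/SvImJ and Balbc/J were -0.0090 and -0.024, and -0.013 and -0.035 with the covariate. In B6C3F1/J the median was -0.042 with 45 negative, and -0.059 with 52 negative without the array high in cerebellar genes. In C57BL6/J it was 0.012 with and -0.011 without such an array, and also below 0 with array weights (-0.0085), array quality (-0.014) or the striatal genes (-0.0025) taken into account.

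The strain by diet interaction was called in 0 of 63 genes, against 0.0401% of all genes, and 8 passed an unadjusted p of 0.05, against 6.11%. On simulated data this test recovered 0% of genes with changes of 0.3, so the 0 does not show that strains responded alike. The 4 of smallest p were Rps19 (F = 3.41, adjusted p = 0.569), Rpl29 (F = 3.28, 0.603), Rpsa (F = 3.00, 0.666) and Rpl10a (F = 2.58, 0.725). Rps19 differed between CR and control by 0.18 in C3H/HeJ and by -0.19 in CBA/J, and Rpsa by 0.23 in C3H/HeJ, -0.21 in Balbc/J and -0.19 in CBA/J. None of these single differences was called. The genes of smallest p in the other strains were Rpl38 in Balbc/J (-0.18, adjusted p = 0.281), Rpl37a in CBA/J (-0.17, 0.171), Rps6 in C57BL6/J (0.081, 0.412), Rpl7 in B6C3F1/J (-0.16, 0.588), Rpl22 in DBA/2J (-0.11, 0.867) and Rps19 in 129S1/SvImJ (-0.10, 0.891). With array weights Rpl37a in CBA/J was called (adjusted p = 0.0324). In C3H/HeJ the Rpsa values ran from 9.24 to 9.59 on control and from 9.36 to 10.03 on CR food, so that the CR mice spread widely and overlapped with the control mice.

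With group means taken out, the ribosomal protein genes varied together from mouse to mouse. Over 112 arrays the median correlation of the 1953 pairs was 0.25 and 83.5% of pairs were positive, against a median of -0.030 and 45.1% for pairs with all other genes. It was 0.40 between small subunit genes, 0.29 between large subunit genes, 0.34 between large and small subunit genes and 0.042 between paralogs. These arrays share their normalization, and probe sets of near-identical genes and their pseudogenes can share probes, so the values are a description. Without the 3 arrays high in cerebellar genes the median over all pairs was 0.22. The genes most like the mean of the others were Rps28 (r = 0.84), Rps20 (0.83), Rpl27a (0.82) and Rps29 (0.81). Those least like it were Rpl3l (-0.32), Rps23rg1 (-0.28) and Rpl39l (-0.19), all 3 paralogs or retrogenes. Their mean signals, 5.79, 7.06 and 4.93, lay below the lowest array median of 7.14. Whether low signal contributes to their correlations was not tested. Of the 5 genes of largest strain range, Rps2 had 0.70, Rpsa 0.52, Rpl34 0.43 and Rpl4 and Rplp0 0.35 each.

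Outside the 63, the 6 genes most like their mean over the 112 arrays were Eef1b2 (r = 0.80), a subunit of the elongation factor eEF1 whose message also starts with a TOP tract, Itm2c (0.72), Gstm5 (0.71), Nisch (0.71), Apoe (0.71) and Pfdn5 (0.71), a subunit of the prefoldin chaperone. Without the 3 arrays the values were 0.64 to 0.76, with Eef1b2 still first.

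Other probe sets were present for 39 of the 63 genes, while 24 had 1 probe set. Those of Rpl41, and some of Rps12 and Rps28, carried the same values as the chosen one. Rpl41 thus had no second reading. Some others, as in Rpl23a and Rpl27, matched each other. All of these are included in the counts and correlations that follow. The 156 other probe sets had a median correlation of 0.98 with the chosen one over the 14 group means and of 0.90 within groups. Of the 156, 118 were lower on CR across strains, and 138 and 147 lay below the parental mean in control and CR hybrids. Up to 14 probe sets named the same gene (Rps12), and since retrocopies of these genes are many, such probe sets may read the parent gene in part and are not independent.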

How the data were processed

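Cortical RNA of 112 mice was measured on Mouse Gene 1.0 ST arrays from Affymetrix. The authors deposited log2 values of 35556 probe sets, made with RMA in Affymetrix Expression Console (versions not given in the sources used here). No value was missing, no 2 arrays were identical, and array medians ran from 7.14 to 7.26. Arrays give no read depth, so their number limits the precision.

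Probe sets were named from the platform annotation: 21789 had 1 symbol, 1621 several and 12146 none. The probe set of highest mean stood for each of 19938 genes. A model of 14 group means was fitted with limma 3.58.1 (R 4.3.3, 98 residual degrees of freedom), and p-values were adjusted by Benjamini-Hochberg over all genes at 0.05. Contrasts gave the CR effect across and within strains, their interaction, strain differences within each diet, and the hybrid against the mean of its parental strains. All p-values are two-sided. Labels do not name litters or batches, so p-values measure the spread between these mice. Quality was the spread of relative log expression. Sequences were read with Python 3.11.15 from a RefSeq table.

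The members and gene lists were chosen with earlier results of these data known, and Rpl32l was put among the paralogs after values were seen. Genes were named by rule. For CR these were those called and the 6 of smallest p, within strains that of smallest p, and for the interaction the 4 of smallest p. For strain they were the 8 called of largest and 3 of smallest control range, and for the hybrid up to 3 called each way. By role they were the paralogs and their partner genes, the stalk genes, the X-linked genes and Rps19bp1. The genes tied to the p53 pathway were a list meant for counts, and naming them was outside this rule. Other settings included another normalization, array weights, covariates, other probe set choices and left-out strains or arrays; 2 (without C3H/HeJ control replicate 4, and striatal genes as covariate) were chosen after seeing the data. On simulated data with changes of 0.3 the fit recovered 99% of genes for CR across strains and 81% for the hybrid in control mice. For strain it recovered 73% and for the interaction 0%. With changes of 0.1 the shares were 68%, 5%, 4% and 0% in the same order.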

Additional observations from a re-analysis of the deposited data

Results flagged for a closer look

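Each of 24 genes named in the comparisons, and the mean over the 63 genes, was searched in the 14 groups for a mouse whose gap to its nearest neighbour, as a share of the group's range, exceeded Dixon's critical value for 8 samples. Of 350 such groups 39 (11.1%) held one, where chance gives about 1 in 20. C57BL6/J control replicate 6, high in cerebellar genes, was lowest in its group in the mean over the 63 genes (-0.15), Rpl10a (10.76), Rpl19 (11.87), Rpl27a (10.25), Rpl38 (10.40), Rpl4 (9.88), Rpl41 (11.76) and Rps2 (11.39). B6C3F1/J control replicate 8, also high in cerebellar genes, was lowest in Rpl27 (10.08), Rpl27a (10.004), Rpl41 (11.68), Rps2 (11.20) and Rpsa (8.74). C3H/HeJ control replicate 4 was lowest in the mean over the 63 genes (-0.077), Rpl10a (10.81), Rpl7 (8.75), Rps2 (11.85), Rps6 (12.23) and Rpsa (9.24). Without that mouse 24 of the 63 genes were called lower in the control hybrid, beside 10% of all genes, with a median of -0.10.

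In 129S1/SvImJ control replicate 1, Rpl24 (9.49), Rpl38 (10.86) and Rpl4 (9.48) were highest in the group. DBA/2J control replicate 8 had the highest Rpl19 (12.51) and the lowest Rpl22 (8.08). The retrogene Rps23rg1 was highest in C57BL6/J CR replicate 1 (7.29), C3H/HeJ CR replicate 1 (7.27) and B6C3F1/J CR replicate 7 (7.48) and lowest in DBA/2J control replicate 3 (6.84). Rpl7a was highest in C57BL6/J control replicate 1 (10.60) and DBA/2J CR replicate 1 (10.54) and lowest in C3H/HeJ CR replicate 7 (10.15). Rpl38 was highest in C57BL6/J CR replicate 4 (10.88) and DBA/2J CR replicate 3 (11.14), and Rplp0 in Balbc/J control replicate 4 (10.73). The lowest of their groups were also Rpl10a in C57BL6/J CR replicate 7 (11.08), Rpl27a in 129S1/SvImJ CR replicate 5 (9.95), Rpl4 in C57BL6/J CR replicate 3 (10.10), Rps19 in 129S1/SvImJ control replicate 6 (8.22) and Rpsa in CBA/J CR replicate 5 (9.84).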

How the results depend on the processing

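Under 23 other settings no named gene changed direction, and the counts of genes called for strain and lower in the hybrid stayed within 1.5 times. The 1 gene called across strains for CR became 2 after quantile normalization, 3 among genes above the median gene, 7 with array weights, 4 with array quality as a covariate, 5 without the 2 or the 3 arrays high in cerebellar genes, 3 with the mean of a gene's probe sets, 4 with the striatal genes as a covariate, 2 without C3H/HeJ and 0 without Balbc/J, CBA/J or DBA/2J. Over all genes the 467 called became 1193 with array weights, 870 and 877 without the 2 or 3 arrays, and 306, 175 and 246 without Balbc/J, CBA/J and DBA/2J. Within strains the count of 0 became 1 with array weights, and 15 by the methods' t-test at an unadjusted p under 0.01. Of these 15, 11 were in CBA/J, or 17.5% of the 63 genes against 3.64% of all genes. The other 4 were in Balbc/J, or 6.35% against 1.89%. The 2 genes called higher in the control hybrid became 1 with array medians set equal, with array quality as a covariate and with the mean of probe sets, and 4 with the striatal covariate. The 1 gene called higher in the CR hybrid became 2 after quantile normalization, with a trended and robust prior, without the 2 or 3 arrays and without C3H/HeJ control replicate 4, and 3 with the striatal covariate. The medians over the 63 genes turned sign in C57BL6/J (0.012, to between -0.014 and -0.0025 under 5 settings) and in DBA/2J (-0.016, to 0.0078 with the striatal covariate). The cause was not tested. The labels do not say that a replicate number marks a shared litter or batch, and of 56 same-numbered pairs 31 had a correlation above 0.1 (median 0.113, range -0.48 to 0.37), so the numbers were not taken as pairs. With the replicate number as a block, 1 gene was called for CR across strains, 0 within strains, 0 for the interaction, 58 and 56 for strain, and 26 and 33 for the hybrid.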
